A study of Mus musculus with 24 samples.

Results

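The 8 genes described here are Akt1, Akt2, Foxo1, Foxo3, Foxo4, Irs1, Irs2 and Pik3ip1, members of the pathway that runs from insulin receptors through PI3K and Akt to the Foxo transcription factors. They were taken by name from the 22282 genes obtained by summing RefSeq transcript rows per mouse symbol, and all 8 were among the 14964 genes tested. RNA-seq had been run on 24 libraries, 3 in each of 8 groups, all labelled C57BL/6J. MACs are amniotic fluid cells of E11.5-E13.5 embryos, and Akt-MACs are the same kind of cell given myristoylated Akt. RACVECs are MACs transduced with lentiviruses for Etv2, Erg and Fli1, and grown in endothelial medium with an inhibitor of TGF-beta signalling. Akt-RACVECs carry myristoylated Akt and Sox17-RACVECs carry mouse Sox17, each on top of these 3 Ets factors. Akt-LECs and Akt-liver ECs are lung and liver endothelial cells (ECs) that were isolated with CD31 beads, cultured, transduced with myristoylated Akt and sorted again, whereas LSECs were sorted from liver without culture. The study describes the cultured lung cells and its directly purified ECs as adult, and exact ages are not given in the sources used here. The methods place the Akt cDNA in a lentiviral vector with a PGK promoter, and no group is labelled as carrying an empty vector. The heading of RACVEC 3 names another day of culture than the methods do. The methods name the construct for lung and liver cells as myrAkt1 and count cultures isolated apart from each other as replicates for MACs. Nothing in the labels says so for the other groups, where p-values measure the spread between these libraries.

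Insulin and related ligands bind receptors that phosphorylate the docking proteins Irs1 and Irs2, and these recruit PI3K. The lipid made by PI3K brings the Akt kinases to the membrane, where they are activated, and a myristoyl group holds Akt there without that signal. Active Akt phosphorylates Foxo1, Foxo3 and Foxo4, which then leave the nucleus, so that this step acts on the proteins and need not alter their transcripts. Foxo factors are known activators of Irs2 transcription, and Pik3ip1 is a transmembrane protein that inhibits PI3K. In endothelium Akt1 is the predominant Akt kinase and phosphorylates the nitric oxide synthase Nos3.

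The promoters of Irs1 and Irs2 are shown because these genes had the largest of the 8 differences, in size, in the mean of both Akt differences among amniotic cells, and neither passed the test. RefSeq windows on GRCm38.p6 from 250 bases before to 50 after the gene start were found for 7 of the 8 genes, in 11 windows. Capitals mark the palindrome CACGTG, known as an E box, and TGTTTTG, the reverse complement of CAAAACA, which is known as the insulin response sequence bound by Foxo factors. The Irs1 stretch is chr1:82291445-82291574 and the Irs2 stretch is chr8:11008940-11008993, both on the minus strand and printed 5′ to 3′.
Irs1: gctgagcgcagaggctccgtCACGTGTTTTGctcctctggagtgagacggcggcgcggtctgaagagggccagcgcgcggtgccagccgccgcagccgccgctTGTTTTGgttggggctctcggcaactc
Irs2: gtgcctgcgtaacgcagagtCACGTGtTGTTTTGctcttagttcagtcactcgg
In Irs1 the 2 motifs overlap in the letters TG, and a further TGTTTTG lies nearer the start. On both strands, CACGTG was present in 7.15% of 32851 promoter windows of this length and CAAAACA in 6.28%, whereas 0.408% held both. The pair was noticed after 10 motifs had been searched, and a match describes letters, not binding. The Foxo site GTAAACA was found in 3.65% of windows and, among the 8 genes, in 1 window of Akt1.

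All values are FPKM, fragments per kilobase of transcript scaled to the library, so levels can be set beside each other between genes. The number of fragments behind each value is unknown. Differences were tested on log2(FPKM + 1), a scale on which the change of a low gene is understated, with limma over all 14964 genes. A gene was called at a Benjamini-Hochberg adjusted p below 0.05. The summed FPKM of a library lay between 1689486 and 2317294. MACs and Akt-MACs held endothelial markers (Cdh5, Pecam1, Kdr, Tek, Tie1, Erg) at 8.11 to 49.7 FPKM in sum, with Erg at 0, and the other groups held them at 1121 to 14199. Akt-MACs also held macrophage markers at 811 to 35489 FPKM in sum, where MACs had 0.79 to 14.7. LSECs held hepatocyte markers at 2076 to 12002 and macrophage markers at 10304 to 16652, and Akt-liver ECs held them at 0 to 52.4 and 0 to 956. LSECs also held the 2 erythroid markers measured (Hba-a1 and Alas2) at 10274.5 to 10896.6 and 3 lymphocyte markers at 106 to 185. In Akt-liver ECs these sums were 0.75 to 1.07 and 0 to 11.1. Column headings in the deposited tables were a letter code, a word or a number, and their form followed the label. All 6 libraries of Akt-MACs and Akt-RACVECs, Akt-LECs 2 and 3 and Sox17-RACVECs 1 and 2 had letters, Akt-LEC 1 and Akt-liver EC 1 had numbers, and the other 12 had words. What the form stands for is not given in the sources used here, and it was looked at after the Akt1 values had been seen.

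**Figure D1:**
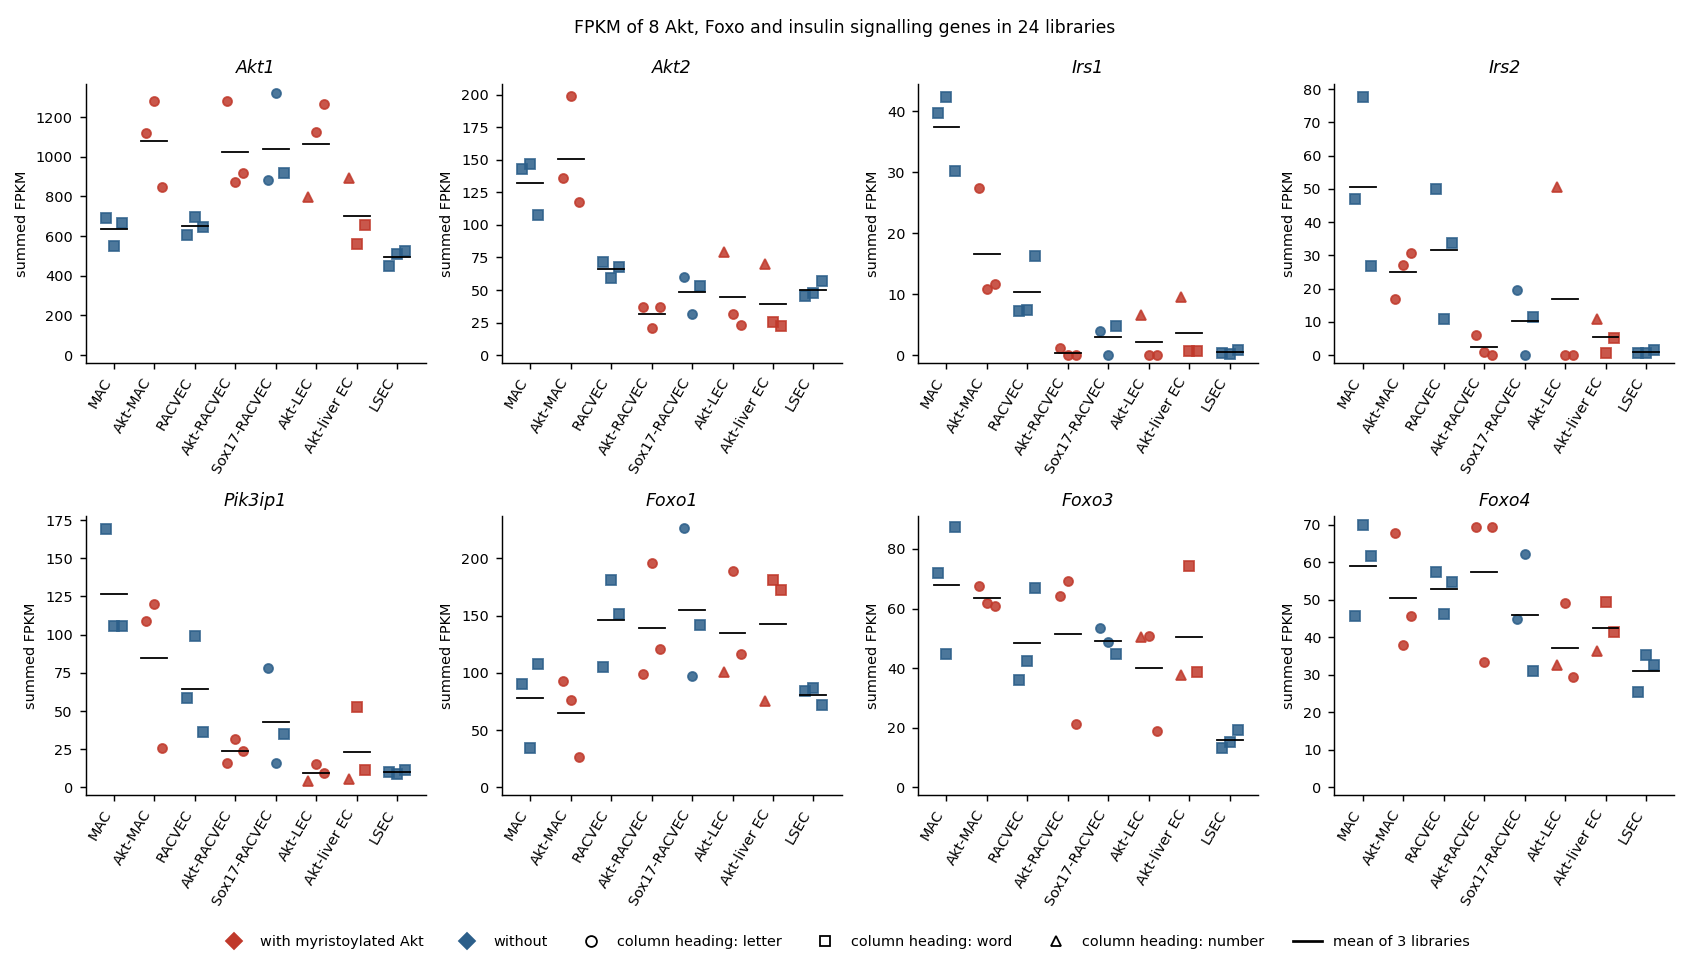
FPKM of each of the 8 genes (y axis, linear from 0) in the 3 libraries of each group (x axis), with a bar at the group mean. Red marks groups with myristoylated Akt, blue those without, and the symbol gives the form of the column heading. Irs1 and Irs2 are highest in MACs and at or near 0 in Akt-RACVECs, and Akt1 is at least 848 in every library headed by a letter, red or blue.

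Akt1 was the most abundant of the 8 genes. Its mean over the 24 libraries was 836 FPKM, at percentile 98.0 of the genes tested, and it ranged from 451 to 1323. The highest library was 2.93 times the lowest, where Foxo4 had 2.77 and Foxo3, the next, 6.58. Akt1 lies at chr12:113892032-113913095 on the minus strand of mm9 (GENCODE M1). The methods name the transduced molecule as myrAkt1 for lung and liver cells, and otherwise only as mouse Akt. Where it is Akt1, its reads and those of the cells' own gene cannot be told apart in these values.

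In MACs, Akt1 stood at 692, 551 and 666 FPKM, and in Akt-MACs at 1117, 1279 and 848. In RACVECs it stood at 607, 694 and 644, and in Akt-RACVECs at 1281, 872 and 920. All 3 libraries with Akt were thus above all 3 without in each setting. The log2 difference was 0.75 ± 0.23 (SE) in MACs, 1.68-fold, with adjusted p = 0.0918, and 0.64 ± 0.23 in RACVECs with adjusted p = 0.181, and neither passed the test. Averaged over both settings it was 0.69 ± 0.16 (95% interval 0.36 to 1.03, adjusted p = 0.0369), and Akt1 was the only one of the 8 genes called, beside 2.13% of all genes. The difference in RACVECs minus that in MACs was -0.11 (95% interval -0.79 to 0.57, adjusted p = 0.940), where 0 of the 8 genes and 0.1% of all genes were called.

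The averaged call was close to the threshold. It was lost on leaving out MAC 1 (adjusted p = 0.0581), MAC 2 (0.0942), Akt-MAC 2 (0.0971), RACVEC 1 (0.0954), RACVEC 3 (0.0659), Akt-RACVEC 1 (0.0688), Akt-RACVEC 2 (0.0525) or Akt-RACVEC 3 (0.0595), and kept on leaving out the other 4, with log2 differences from 0.61 to 0.78 throughout. It was also lost when each library was scaled by its median shift (0.63, adjusted p = 0.0508) and in a fit of only these 4 groups (adjusted p = 0.0691). The median of all genes was 0.087 in MACs with Akt against without and -0.057 after that scaling, a shift of over 0.1.

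Over all groups, the 12 libraries with myristoylated Akt had Akt1 at 559, 906 and 1281 FPKM (lowest, median, highest) and the 12 without at 451, 655 and 1323. The 2 sets overlapped. The mean of the 4 group means with Akt was higher by 0.48 ± 0.11 on the log2 scale (adjusted p = 0.0131), where 9.92% of all genes were called, and Akt1 was again the only one of the 8. This call was kept in each of 24 fits that left out 1 library, with adjusted p from 0.00559 to 0.0282. Cell source also differs between these sides, since lung cells occur only with Akt. Culture differs too, since LSECs, the only group without culture, lie on the side without Akt.

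Sox17-RACVECs, which were given no Akt, had Akt1 at 884, 1323 and 916 FPKM. All 3 were above the 3 RACVEC libraries, with a log2 difference of 0.66 ± 0.23 (adjusted p = 0.563), a comparison in which 0.00668% of genes were called and none of the 8. Library 2, with the highest Akt1 of the 24 libraries, was unlike libraries 1 and 3 in marker genes. It had Tek at 231 FPKM, where they had 3.67 and 5.17, and Erg, which is also a transduced factor, at 387, where they had 4.49 and 0. Its mesenchymal markers were 5.2 in sum, where theirs were 697 and 636. In the order of group means, Akt-MACs (1082), Akt-LECs (1063), Sox17-RACVECs (1041) and Akt-RACVECs (1024) came first and overlapped one another. Akt-liver ECs (702), RACVECs (649) and MACs (636) followed, and LSECs (494) were below the lowest library of MACs.

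Akt1 levels are also given by the form of the column heading. Libraries headed by a letter had 848 to 1281 FPKM with Akt (8 libraries) and 884 to 1323 without (2 libraries). Those headed by a word had 559 to 656 with Akt (2 libraries) and 451 to 916 without (10 libraries), and the 2 headed by a number had 798 and 892. With heading form as a factor in the fit, the averaged difference was 0.16 ± 0.31 (adjusted p = 1) and that over all groups was 0.16 ± 0.19 (adjusted p = 0.787), and both calls were lost. That factor rests on Sox17-RACVECs, Akt-LECs and Akt-liver ECs. Its own term for letter minus word was 0.54 ± 0.27 for Akt1 (adjusted p = 1) and was called for 0 of 14964 genes, with 603 at an unadjusted p below 0.05. Within Sox17-RACVECs the library headed by a word, at 916, lay between those headed by letters, at 884 and 1323. Between MACs and Akt-MACs, and between RACVECs and Akt-RACVECs, heading form and Akt cannot be told apart.

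The 2 RefSeq rows of Akt1 behaved differently. The larger row held between 95.3% and 99.998% of the summed FPKM of a library. It stood at 674, 536 and 654 in MACs and at 1117, 1277 and 842 in Akt-MACs, and at 597, 688 and 632 in RACVECs and at 1271, 870 and 902 in Akt-RACVECs. Tested as a row of its own among 18506 transcripts, it was higher by 0.71 ± 0.16 with Akt (adjusted p = 0.0422, mean of both settings). The smaller row stood at 17.9, 15.4 and 11.8 in MACs and at 0.02, 1.95 and 6.13 in Akt-MACs, and fell by 2.51 on the log2 scale (SE 0.64, adjusted p = 0.0447). In RACVECs it stood at 10.3, 5.48 and 12.5 and in Akt-RACVECs at 9.27, 2.45 and 18.6, with a difference of -0.17 (adjusted p = 0.993). Rows of the same gene share most of their sequence, and the split between them is an estimate of the authors' software.

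Akt2, the family member known for its part in insulin-stimulated glucose uptake, was less abundant than Akt1, with a mean of 70.3 FPKM. It lies at chr7:28376571-28425845. MACs had 143, 147 and 108 FPKM and Akt-MACs had 136, 199 and 117, which overlapped (0.16 ± 0.42, adjusted p = 0.954). RACVECs had 71.6, 59.2 and 67.7, all below MACs, and Akt-RACVECs had 36.8, 21.2 and 36.7, all below RACVECs. The difference in RACVECs was -1.08 ± 0.42 (95% interval -1.96 to -0.20, adjusted p = 0.217), and RACVECs were lower than MACs by 0.98 (adjusted p = 0.205), so neither was called. The difference in RACVECs minus that in MACs was -1.25 (adjusted p = 0.413). Both rows of Akt2 were lower in Akt-RACVECs than in RACVECs on average, at 23.2 against 43.0 and at 8.37 against 23.2. Akt-liver ECs had 69.7, 25.6 and 22.2 and LSECs 45.7, 47.6 and 56.7. The library headed by a number was the high one. Without both number-headed libraries Akt2 was lower in Akt-liver ECs by 1.03 (adjusted p = 0.0155) and lower over all groups with Akt (-0.68, adjusted p = 0.00583). With all libraries these were -0.53 (adjusted p = 0.354) and -0.43 (adjusted p = 0.211). The 2 libraries left out also held the most mesenchymal marker RNA of their groups, 1711 FPKM in sum in Akt-liver EC 1 and 2877 in Akt-LEC 1, where the others had 120 and 402, and 16.6 and 80.3. Over the 24 libraries Akt2 followed Irs1 (Pearson r = 0.884) and Irs2 (r = 0.801), and the part of mesenchymal cells in the Akt2 values was not tested.

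Irs1, at chr1:82229676-82287991, was highest in MACs. They had 39.7, 42.3 and 30.1 FPKM, above every library of every other group. Akt-MACs had 27.4, 10.8 and 11.7 and RACVECs had 7.31, 7.47 and 16.3. Akt-RACVECs had 1.2 in library 1 and 0 in libraries 2 and 3. Sox17-RACVECs had 3.89, 0 and 4.85, Akt-LECs 6.57, 0 and 0, Akt-liver ECs 9.51, 0.63 and 0.67, and LSECs 0.32, 0.27 and 0.92. Groups with Akt were thus wholly below their counterparts among amniotic cells, in MACs as in RACVECs. Irs1 was listed at 0 in 5 libraries and Irs2 in 4, and none of 9 genes that every cell uses, such as Actb and Tbp, was. Those 9 genes were never below 38.4 FPKM, where Irs1 and Irs2 averaged 9.25 and 17.9. They therefore cannot show whether a 0 in a low gene is absence or too few fragments.

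The Irs1 difference was -1.23 ± 0.82 in MACs (adjusted p = 0.589) and -3.04 ± 0.82 in RACVECs (95% interval -4.75 to -1.32, adjusted p = 0.0889). Averaged, it was -2.13 ± 0.58 (95% interval -3.35 to -0.92, adjusted p = 0.0605). Neither setting nor the average was called, and the difference between the settings was -1.81 (95% interval -4.23 to 0.62, adjusted p = 0.572). The average passed the test with a pseudocount of 10 (adjusted p = 0.0344), with scaling by the median shift (0.0488), in the fit of only these 4 groups that lost Akt1 (0.0360) and without Akt-MAC 1 (0.0314). RACVECs were lower than MACs by 1.83 (adjusted p = 0.223) and Sox17-RACVECs lower than RACVECs by 1.80 (adjusted p = 0.727). Over all groups with Akt against those without, Irs1 differed by -0.96 ± 0.41 (adjusted p = 0.148). Without the 2 number-headed libraries that difference was called (-1.43, adjusted p = 0.00617). The averaged difference was -1.11 (adjusted p = 1) with heading form as a factor.

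Irs2, at chr8:10986980-11008458, was more variable. MACs had 46.9, 77.6 and 26.9 FPKM and Akt-MACs 17.0, 27.0 and 30.8, which overlapped. RACVECs had 50.1, 10.96 and 33.8, and Akt-RACVECs had 6.0, 1.02 and 0, all lower. Sox17-RACVECs had 19.5, 0 and 11.47, Akt-LECs 50.5, 0 and 0, Akt-liver ECs 10.9, 0.74 and 5.14, and LSECs 0.65, 0.79 and 1.57. The difference was -0.91 ± 1.28 in MACs (adjusted p = 0.872), -3.52 ± 1.28 in RACVECs (95% interval -6.21 to -0.83, adjusted p = 0.189) and -2.21 ± 0.91 on average (adjusted p = 0.189). The average was 0.04 ± 1.32 with heading form as a factor, on the other side of 0. Over all groups with Akt against those without, Irs2 differed by -0.96 ± 0.64 (adjusted p = 0.372).

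Both genes followed mesenchymal genes across the libraries. The 2 genes most like Irs1 over the 24 libraries, among 11699 with a mean of at least 10 FPKM, were Col16a1 (Pearson r = 0.956) and Ssc5d (r = 0.953), and those most like Irs2 were Loxl1 (r = 0.957) and the collagen gene Col1a1 (r = 0.950), itself 1 of the markers below. The 6 mesenchymal markers (Pdgfra, Pdgfrb, Col1a1, Col3a1, Dcn, Acta2) summed to 2184 to 5088 FPKM in MACs, 1522 to 5919 in Akt-MACs and 2265 to 4746 in RACVECs. They summed to 0.58 to 226 in Akt-RACVECs. Akt-LEC 1, where Irs2 was 50.5, had 2877, and Akt-LECs 2 and 3, where it was 0, had 16.6 and 80.3. Akt-liver EC 1 had 1711 and the highest Irs1 and Irs2 of its group. Sox17-RACVEC 2, with both genes at 0, had 5.2, and the other 2 libraries of that group had 697 and 636. LSEC 3, at 888, had little of either gene. In bulk RNA fewer cells of a type and less RNA per cell cannot be told apart. Of the 6 markers, 0 were called in Akt-RACVECs against RACVECs and all 6 had an unadjusted p below 0.05 there, with 0 of 6 above 0. The part of these cells in the Irs1 and Irs2 values was not tested. In Akt-MACs 1, 2 and 3 the macrophage marker Lyz2 stood at 708, 5939 and 21124 FPKM. Of these libraries, library 1 had the highest Irs1, at 27.4 against 10.8 and 11.7. It also had the lowest Irs2, at 17.0 against 27.0 and 30.8. The part of macrophages in these values was not tested either.

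**Figure D2:**
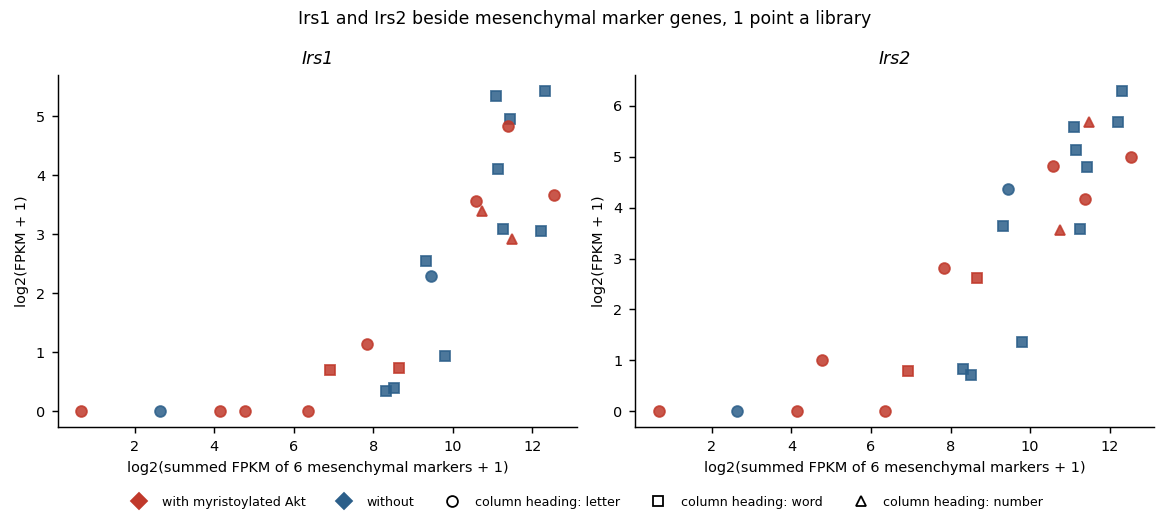
Irs1 (left) and Irs2 (right) as log2(FPKM + 1) on the y axis against the log2 of 1 plus the summed FPKM of the 6 mesenchymal markers on the x axis, with 1 point per library. Colours give the Akt label and symbols the form of the column heading. The libraries with either gene at 0 have marker sums of at most 80.3 FPKM, and the 9 libraries of MACs, Akt-MACs and RACVECs and the 2 headed by a number have sums of at least 1522.

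Pik3ip1, at chr11:3230404-3242974, was also highest in MACs. They had 169, 106 and 106 FPKM, and Akt-MACs had 109, 120 and 25.6, with library 3 apart from the other 2. That library also held the most macrophage marker RNA of Akt-MACs, 35489 FPKM in sum, whose part was not tested. RACVECs had 58.5, 98.9 and 36.2, and Akt-RACVECs had 16.3, 31.4 and 23.95, all lower. The difference was -0.82 ± 0.71 in MACs (adjusted p = 0.723), -1.33 ± 0.71 in RACVECs (adjusted p = 0.371) and -1.07 ± 0.50 on average (95% interval -2.13 to -0.02, adjusted p = 0.256), and none was called. Akt-LECs had 4.15, 15.3 and 9.65, about the level of LSECs at 9.86, 9.1 and 11.6. Akt-liver ECs had 5.51, 52.4 and 11.2. Without Akt-liver EC 2 the difference over all groups was called (-1.10, adjusted p = 0.0360), and with it the difference was -0.88 (adjusted p = 0.128).

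In RACVECs, 4 of the 8 genes (Akt2, Irs1, Irs2 and Pik3ip1) had all 3 Akt libraries below all 3 without, where 9.15% of all genes did, and Akt1 had them above, where 10.6% did, 5 genes in all beside 19.8%. In MACs it was Irs1 below (4.19% of all genes) and Akt1 above (10.7%), beside 14.9% in either direction. In Sox17-RACVECs against RACVECs it was Irs1 below (6.55%) and Akt1 above (4.05%). No gene of the 8 was called in Akt-MACs against MACs or in Akt-RACVECs against RACVECs, where 2.9% and 0.267% of all genes were. At an unadjusted p below 0.05 there were 1 and 4 of the 8, and 2093 and 2375 of the 14964 genes. RACVECs against MACs had Akt2, Irs1 and Pik3ip1 wholly below (10.5% of genes), with 0 of the 8 and 2.95% of all genes called. The same MAC libraries serve Akt-MACs and RACVECs, and the same RACVEC libraries serve Akt-RACVECs, Sox17-RACVECs and the comparison with MACs, so these differences share controls.

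**Figure D3:**
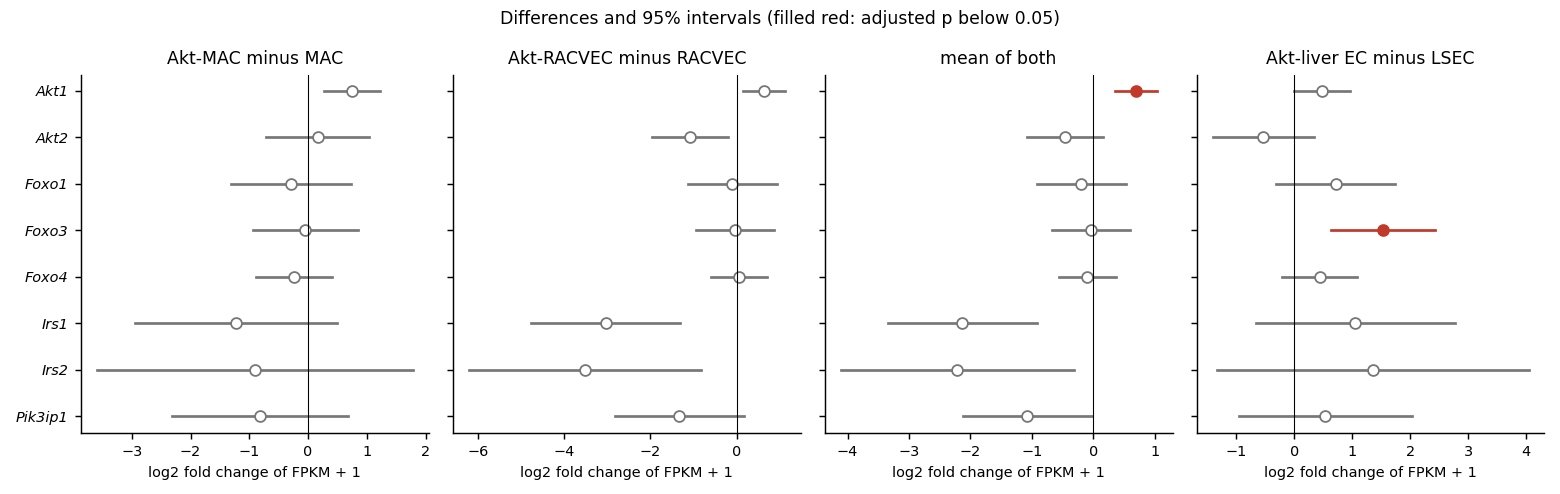
Log2 fold changes of FPKM + 1 (x axis) with 95% intervals for the 8 genes (y axis) in Akt-MACs against MACs, Akt-RACVECs against RACVECs, the mean of both, and Akt-liver ECs against LSECs. Filled red points passed an adjusted p below 0.05. Only Akt1 in the mean of both and Foxo3 in liver cells are red, and the intervals of Irs1 and Irs2 span several log2 units.

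No Foxo transcript passed the test for Akt among amniotic cells. Foxo1, at chr3:52072259-52154031, stood at 90.7, 34.8 and 108 FPKM in MACs and at 92.6, 76.1 and 26.2 in Akt-MACs. It stood at 105, 181 and 151 in RACVECs and at 99.1, 196 and 121 in Akt-RACVECs. The averaged difference was -0.19 (95% interval -0.92 to 0.53, adjusted p = 0.824). Foxo1 is known for its high level in endothelium, and group means were 135 to 155 in the 5 groups of transduced endothelial or converted cells, and 64.97 to 81.1 in MACs, Akt-MACs and LSECs. RACVECs were higher than MACs by 1.01 ± 0.49 (adjusted p = 0.260), with overlapping libraries.

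Foxo3, at chr10:41901647-41996561, stood at 71.8, 44.8 and 87.2 FPKM in MACs and at 67.5, 62.0 and 61.0 in Akt-MACs. RACVECs had 36.0, 42.3 and 67.0, and Akt-RACVECs had 64.2, 69.2 and 21.1. The averaged difference was -0.04 (95% interval -0.67 to 0.59, adjusted p = 0.981). Foxo4, an X-linked gene at chrX:98449867-98456212, had the smallest ratio of highest to lowest library of the 8, at 25.3 to 69.97 FPKM. Its averaged difference was -0.09 (95% interval -0.55 to 0.37, adjusted p = 0.871). The intervals leave room for differences of up to 0.92 log2 units in Foxo1 and 0.67 in Foxo3. Signs of the Foxo differences among amniotic cells turned when single libraries were left out.

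In liver cells a Foxo gene was called. Foxo3 stood at 37.8, 74.4 and 38.8 FPKM in Akt-liver ECs and at 13.3, 15.4 and 19.3 in LSECs, with all 3 cultured libraries higher. The log2 difference was 1.54 ± 0.43 (95% interval 0.64 to 2.43, adjusted p = 0.00937), and Foxo3 was the only one of the 8 called, where 34.4% of all genes were and 18.2% were higher. The call was lost without Akt-liver EC 2 (1.23, adjusted p = 0.0542). LSECs held the lowest Foxo3 mean of the 8 groups, 15.97 FPKM against 39.9 to 67.9 in the others. Akt and culture cannot be told apart in this pair. All 6 hepatocyte, all 5 macrophage and both erythroid markers measured were lower in Akt-liver ECs, as were the 2 lymphocyte markers tested. The part of such cells in the Foxo3 level of LSECs was not tested.

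Foxo4 stood at 36.5, 49.5 and 41.5 in Akt-liver ECs and at 25.3, 35.3 and 32.7 in LSECs, and Akt1 at 892, 559 and 656 against 451, 508 and 523. Both were wholly higher in the cultured cells, as were 27.7% of all genes (52.6% in either direction), and neither was called (Foxo4 0.44, adjusted p = 0.294; Akt1 0.48, adjusted p = 0.111). Foxo1 stood at 75.6, 181 and 173 against 84.0, 87.0 and 72.3, which overlapped (0.71, adjusted p = 0.278). Irs1 (1.05, adjusted p = 0.346), Irs2 (1.35, adjusted p = 0.448) and Pik3ip1 (0.54, adjusted p = 0.599) overlapped too.

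Other genes of the pathway were taken from 6 lists with 87 genes, of which 84 were tested. In the mean of both Akt differences 6 rose and 0 fell, where 1.69% of all genes rose and 0.434% fell, and the median log2 difference over the 84 genes was 0.03, beside 0.06 over all genes. The 6 were the adaptor Grb2, the PI3K subunits Pik3cg and Pik3r6, the lipid phosphatase Inpp5d, the phosphatase Ptpn1, which dephosphorylates the insulin receptor, and Tbc1d1, an Akt substrate of glucose transport. In MACs alone Inpp5d, Pik3cg, Ptpn1 and the catalase gene Cat rose, and the adaptor Shc1 and the pseudokinase Trib2 fell, where 2.65% of all genes rose and 0.254% fell. Without Akt-MAC 2 all 6 of these calls were lost, with adjusted p = 0.0621 for Inpp5d, and without MAC 1 or MAC 2 all but Inpp5d. In RACVECs alone 0 of the 84 genes were called (0.227% of all genes rose and 0.0401% fell), and 0 in the difference between settings (0.00668% and 0.0936%). With heading form as a factor, 0 of 14964 genes were called in the mean of both differences, so that all these calls were lost there. A fit of only these 4 groups also lost all 6 averaged calls, with adjusted p of 0.0646 for Pik3r6, 0.0744 for Inpp5d, 0.0897 for Grb2, 0.0976 for Pik3cg, 0.115 for Ptpn1 and 0.123 for Tbc1d1. Fitted alone, MACs and Akt-MACs lost all 6 of their calls too, Trib2 with adjusted p = 0.488.

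Grb2, which links receptors to Ras, stood at 201, 127 and 224 FPKM in MACs and at 245, 300.3 and 489 in Akt-MACs. It stood at 170, 195 and 228 in RACVECs and at 374, 336 and 347 in Akt-RACVECs, and both pairs of groups were apart. Its averaged difference was 0.86 ± 0.19 (adjusted p = 0.0312), and 5 of 12 fits without 1 library kept the call. Ptpn1 was higher by 0.97 ± 0.22 (adjusted p = 0.0339, kept in 4 of 12) and Tbc1d1 by 1.18 ± 0.27 (adjusted p = 0.0367, kept in 3 of 12). Grb2, Pik3cg, Pik3r6, Ptpn1 and Tbc1d1 each lost the averaged call without MAC 2 and without Akt-MAC 2. In Akt-MACs 1, 2 and 3 Ptpn1 stood at 99.23, 180.6 and 293.39 FPKM. Ptpn1 and Grb2 thus rose there in the order of the macrophage marker Lyz2, whereas Tbc1d1, at 57.38, 122.81 and 72.25, did not. Ptpn1 and Grb2 were also wholly higher in Akt-RACVECs than in RACVECs. The part of macrophages in the Grb2 and Ptpn1 values was not tested.

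Inpp5d, Pik3cg and Pik3r6 are best known from blood cells. Inpp5d was listed at 0 in all 3 MAC libraries and at 3.35, 79.8 and 209 FPKM in Akt-MACs (adjusted p = 0.00918). It stood at 5.25, 30.7 and 3.97 in RACVECs and at 116, 56.2 and 113 in Akt-RACVECs, where the difference was 3.20 ± 1.01 (adjusted p = 0.130). The averaged call (adjusted p = 0.00869) was kept in all 12 fits without 1 library of the averaged groups. Pik3cg was listed at 0 in MACs and at 1.30, 43.1 and 112 in Akt-MACs, and stood at 1.13, 1.6 and 0.62 in RACVECs and at 17.0, 21.7 and 4.7 in Akt-RACVECs (averaged adjusted p = 0.0278, kept in 4 of 12). Pik3r6 stood at 0.53, 0 and 0 in MACs, 0.48, 15.6 and 26.0 in Akt-MACs, 0.84, 0.55 and 1.74 in RACVECs and 25.03, 24.9 and 17.3 in Akt-RACVECs (averaged 3.23 ± 0.71, adjusted p = 0.0312, kept in 3 of 12). In Akt-MACs 4 of 5 macrophage markers measured were also called higher, with Clec4f at 0, and the part of such cells was not tested. In Akt-RACVECs the macrophage sum was 5.35 to 153 FPKM and in RACVECs 8.95 to 304. Inpp5d stood at 94.97 and 184.43 in Akt-LECs 2 and 3 and at 109.98 and 96.42 in Akt-liver ECs 2 and 3. The macrophage marker Adgre1 was 0 in all of these. Sox17-RACVEC 2 had Inpp5d at 154.31, Pik3cg at 14.82 and Pik3r6 at 11.99. Libraries 1 and 3 had 22.56 and 46.91, 0.26 and 0.48, and 0 and 0. Library 2 had an endothelial marker sum of 12326, where these had 3354 and 3573. In Akt-MACs that sum was at most 49.7. The part of endothelial cells was not tested.

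**Figure D4:**
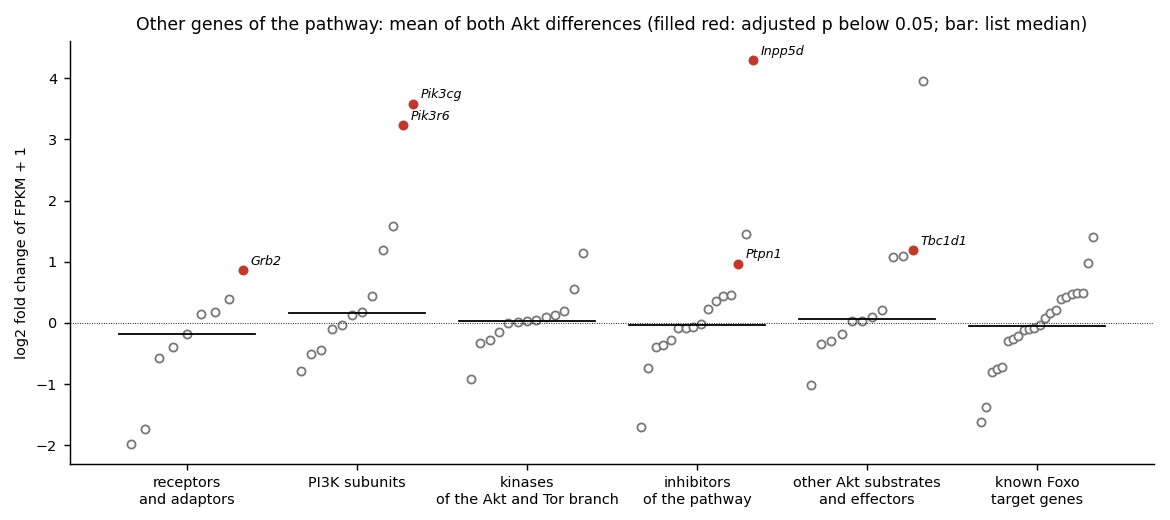
Log2 fold change of FPKM + 1 (y axis), as the mean of both Akt differences among amniotic cells, for the 84 tested genes in 6 lists (x axis), with 1 point per gene and a bar at each list's median. Filled red points passed an adjusted p below 0.05, 6 in number, and all lie above 0, while the list medians run from -0.18 to 0.16. The values of Inpp5d and Pik3cg include a group listed at 0 and depend on the pseudocount.

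Nos3, the endothelial nitric oxide synthase, was listed at 898, 62.3 and 444 FPKM in Akt-RACVECs and at 0.87, 0 and 2.46 in RACVECs, a difference that just missed the test (7.30 ± 1.71, adjusted p = 0.0611). It was at most 1.5 in MACs and Akt-MACs. Sox17-RACVEC 2 had 819 and the other 2 libraries of that group had 0 and 0.58. Endothelial markers moved with it: their sum was 9415 to 14199 FPKM in Akt-RACVECs and 1121 to 2525 in RACVECs, with 2 of 6 called and 5 of 6 at an unadjusted p below 0.05. In Sox17-RACVECs the sum was 12326 in library 2 and 3354 and 3573 in the others. Erg, which is among these markers, was also transduced into RACVECs, Akt-RACVECs and Sox17-RACVECs. The part of endothelial markers in the Nos3 values was not tested. Over all groups with Akt Nos3 was called (2.84 ± 0.86, adjusted p = 0.0418), and 20 of the 24 fits without 1 library lost that call.

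Few known Foxo target genes were called among amniotic cells. Of 22 tested, 1 rose in Akt-MACs (Cat, 1.23 ± 0.30, adjusted p = 0.0306, lost in 5 of 6 fits without 1 library), 0 were called in Akt-RACVECs and 0 in the mean of both, beside 2.9%, 0.267% and 2.13% of all genes. Cat stood at 434, 891 and 1159 FPKM in Akt-MACs 1, 2 and 3, in the order of the macrophage marker Lyz2. The part of macrophages in the Cat values was not tested. The list median was 0.33 in MACs, beside 0.09 over all genes, and -0.17 in RACVECs, beside 0. In Akt-liver ECs against LSECs 2 rose and 8 fell, where 18.2% of all genes rose and 16.2% fell, with a median of -0.81, beside 0.08. Angpt2, an endothelial ligand of Tek, rose from 113, 81.5 and 111 FPKM in LSECs to 2239, 3622 and 8133 (5.31 ± 1.38, adjusted p = 0.00599). Pck1 and G6pc, enzymes of glucose production that are abundant in hepatocytes, fell, and Pck1 stood at 58.8, 52.3 and 110 in LSECs and was listed at 0 in Akt-liver ECs (adjusted p = 4.34e-06). G6pc stood at 3.39, 2.67 and 32.5 in LSECs, where the hepatocyte marker Alb stood at 1951, 1211 and 7975. Catalase fell by 1.33 (adjusted p = 0.00212) and Rbl2 by 0.95 (adjusted p = 0.00617). Akt and culture cannot be told apart in this pair, and LSECs held far more hepatocyte, macrophage and erythroid marker RNA. The part of such cells in these and the other list genes of liver cells was not tested.

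Liver cells had 28 of the 84 list genes called, 33.3% beside 34.4% of all genes, 14 rose and 14 fell, beside 18.2% and 16.2% of all genes, with a median of 0.03. Among receptors and adaptors Shc1 (1.58) and Grb10 (1.82) rose and Sh2b2 (-1.94) fell. Rptor (1.09), a subunit of the mTOR complex, and the kinase Gsk3b (1.01) rose and the PI3K subunit Pik3c2b (-3.54) fell. Of inhibitors, Trib3 (3.02) and Trib1 (1.37) rose and Socs3 (-2.63) fell, and of Akt substrates Mdm2 (2.02) and Tbc1d4 (1.59) rose and Tbc1d1 (-1.40) fell. All of these passed the test, Socs3 with the highest adjusted p of those named (0.02996). Of 6 fits without 1 library, 4 lost Sh2b2, 4 lost Socs3, 2 lost Gsk3b, 2 lost Trib1 and 1 lost Tbc1d4. Without Akt-liver EC 2 the calls of Gsk3b, Sh2b2, Socs3 and Trib1 were lost. Those of Tbc1d4, Sh2b2 and Socs3 were lost without Akt-liver EC 3. Single LSEC libraries also cost calls of Gsk3b, Sh2b2, Socs3 and Trib1. Socs3 stood at 131, 236 and 1609 FPKM in LSECs, and a fit of only the groups compared lost its call (adjusted p = 0.0891).

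Over all groups with Akt against those without, 10 of the 84 were called, 11.9% beside 9.92% of all genes (5.81% rose and 4.11% fell). Among them Deptor, an inhibitor of mTOR, fell by 1.37 (adjusted p = 0.0223), Pck1 fell by 1.91 (0.00280) and Rbl2 fell by 0.41 (0.0409). Tbc1d4 (1.38, adjusted p = 0.000686), Inpp5d (2.40, 0.00539), Ptpn1 (0.60, 0.0198), Pik3cg (2.03, 0.0221), Rptor (0.40, 0.0357) and Nos3 rose. With heading form as a factor Tbc1d4 kept its call (adjusted p = 0.0475) and the other 9 did not. Group means of Tbc1d4 were 127 FPKM in Akt-liver ECs, 76.1 in Akt-LECs, 29.1 in Akt-MACs and 23.9 in Akt-RACVECs. Without Akt they were 38.9 in LSECs, 19.3 in Sox17-RACVECs, 15.98 in RACVECs and 9.26 in MACs. In the mean of both Akt differences among amniotic cells Tbc1d4 was not called (1.10). Cell source and culture also differ between the sides compared here. The calls of Rbl2 and Rptor were lost in 19 and 16 of the 24 fits without 1 library. Pck1 was above 0 only in LSECs and MAC 2. In RACVECs against MACs 1 list gene was called, Trib3, a pseudokinase that binds Akt (3.10 ± 0.81, adjusted p = 0.0429, lost in 6 of 6 fits without 1 library), and in Sox17-RACVECs against RACVECs 0.

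Over the 24 libraries the genes most like the others of the 8 were Slc7a11 (Pearson r = 0.786) and Gad2 (0.776) for Akt1, Tlcd1 (0.922) and Islr (0.904) for Akt2, Lix1l (0.879) and Pbxip1 (0.870) for Pik3ip1, Upp1 (0.824) and Cda (0.810) for Foxo1, Sulf2 (0.874) and Apbb1 (0.872) for Foxo3, and Reck (0.818) and Dtx3 (0.786) for Foxo4. These libraries fall into 8 groups that share cell source and culture, so the correlations describe the groups as well as the genes.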

How the data were processed

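Bulk RNA-seq of 24 libraries (TruSeq, paired 51 bp reads) was used. The authors mapped reads with TopHat to mm9 and deposited FPKM per RefSeq transcript computed by Cufflinks, which scaled libraries to their upper quartile and corrected for sequence bias. Versions, annotation and read numbers are not given in the sources used here, so depth is unknown and precision is that between libraries. Of 27583 transcripts, 26934 had a symbol and the other 649 were kept as genes of their own; rows of a symbol were summed to 22282 genes. Groups were taken from sample titles. limma 3.58.1 (R 4.3.3) was fitted to log2(FPKM + 1) with 8 group means, a variance trend, tested on both sides, and adjusted by Benjamini-Hochberg across the 14964 genes whose mean reached 1 FPKM, in place of the study's per-gene test, which was an alternative. Fits were tested on simulated data. The 8 genes, the gene lists and the naming rule (all 8 genes, list genes called among amniotic cells, otherwise the 3 largest called per list, and 2 most alike genes each) were chosen with earlier results of these data known. Replicate numbers did not pair libraries (correlations of deviations from -0.200 to 0.206). Alternatives covered pseudocount, filter, scaling, samples, block and rows; those on heading form were added after seeing the data. Values of 1 list gene are not reported here, and the list counts include it.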

Additional observations from a re-analysis of the deposited data

How the results depend on the processing

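Over the 8 genes, 1161 alternative values kept direction and side of the threshold, 79 changed direction, 16 passed the test newly and 16 no longer passed; the causes were not tested. Under the study's criterion, the number of the 8 genes called became 1 in Akt-MACs (Irs1), 1 in Akt-RACVECs (Akt2) and 1 in RACVECs against MACs (Irs1). In liver cells it became 0 (from 0, 0, 0 and 1 in that order). Of all genes, 1.04%, 3.43%, 2.75% and 17.0% met that criterion there. With a pseudocount of 10 the number was 2 in the mean of both Akt differences and 1 in RACVECs against MACs. With a log2 fold limit of 1 it was 0 in the mean of both and over all groups. With heading form as a factor it was 0 in the mean of both, 2 in liver cells, beside 4823 of 14964 genes, and 0 over all groups. Without the 2 number-headed libraries it was 2 in liver cells and 3 over all groups. Leaving out 1 library gave 0 to 2 in the mean of both, 0 to 1 in liver cells and 1 to 2 over all groups.

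Replicate numbers did not pair libraries: in 0 of 5 pairs of groups were all 3 correlations above 0.1. With the replicate block, 1 of the 8 genes was called in Akt-RACVECs (Irs1, adjusted p = 0.0494) and 2 in the mean of both (Irs1 added, adjusted p = 0.0382); over all genes it gave 150 calls in Akt-RACVECs and 4 in Sox17-RACVECs.

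Directions turned as follows. With heading form as a factor, log2 differences were 0.23 (Foxo3) and 1.35 (Irs2) in MACs, 0.082 (Foxo1), 0.24 (Foxo3) and -0.41 (Foxo4) in RACVECs, and 0.23 (Foxo3) and 0.039 (Irs2) in their mean. The smaller Akt1 row gave -2.51 in MACs, -0.17 in RACVECs, -1.34 in their mean, 2.34 in the difference between settings, -0.83 in liver cells, -1.10 over all groups and -0.67 in RACVECs against MACs. Foxo3 was 0.087 in RACVECs under the study's criterion. Scaling by the median shift gave Akt1 0.054 in the difference between settings and -0.013 in RACVECs against MACs, and Foxo1 -0.033 over all groups. Foxo4 was 0.035 over all groups without the number-headed libraries.

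Leaving out 1 library gave ranges across 0. In MACs they were -0.055 to 0.32 (Akt2), -0.78 to 0.26 (Foxo1) and -0.32 to 0.16 (Foxo3); in RACVECs -0.37 to 0.12 (Foxo1), -0.33 to 0.50 (Foxo3) and -0.12 to 0.40 (Foxo4); in their mean -0.44 to 0.081 (Foxo1), -0.19 to 0.23 (Foxo3) and -0.21 to 0.077 (Foxo4). In the difference between settings they were -0.28 to 0.020 (Akt1), -0.35 to 0.69 (Foxo1) and -0.29 to 0.55 (Foxo3). They were -0.32 to 1.20 for Pik3ip1 in liver cells, -0.083 to 0.18 (Foxo1) and -0.070 to 0.077 (Foxo4) over all groups, -0.068 to 0.10 for Akt1 in RACVECs against MACs, and -0.27 to 0.33 (Foxo1), -0.12 to 0.32 (Foxo3) and -0.48 to 0.0081 (Foxo4) in Sox17-RACVECs.

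Over all genes, calls in Akt-MACs went from 434 to 252 (mean FPKM of at least 10), 23 (heading form) and 3 (only the groups compared). In Akt-RACVECs they went from 40 to 100 (pseudocount 10), 87 (mean of at least 10), 0 (heading form) and 9 (only the groups compared), and in the mean of both from 318 to 0 (heading form) and 67 (only the groups compared). The difference between settings had 15, and 32 (pseudocount 0.1), 35 (no filter), 3 (mean of at least 10), 152 (heading form) and 31 (only the groups compared). All groups had 1485, and 187 (heading form) and 772 (fold limit). Sox17-RACVECs had 1, and 2 (either pseudocount), 0 (mean of at least 10), 2 (heading form) and 9 (only the groups compared), and RACVECs against MACs 441 and 42 (only the groups compared). Leaving out 1 library gave 72 to 809 in Akt-MACs, 5 to 95 in Akt-RACVECs, 40 to 824 in the mean of both, 12 to 440 in the difference between settings, 1 to 53 in Sox17-RACVECs and 181 to 810 in RACVECs against MACs, so the shares of all genes called that stand beside the counts move as much. Scaling moved the split of higher and lower calls from 253 and 65 to 174 and 99 in the mean of both, from 1 and 14 to 3 and 15 in the difference between settings and from 870 and 615 to 598 and 790 over all groups. Depth is unknown, so what it limits could not be assessed.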
